A study of Mus musculus with 4 samples.

Results

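The CXC chemokine ligands expressed by tumor-associated macrophages (TAMs) were examined in RNA-sequencing libraries of CD45+CD11b+F4/80+ cells sorted from B16-F10 melanomas, and 8 ligands were followed (Cxcl1, Cxcl2, Cxcl3, Cxcl9, Cxcl10, Cxcl13, Cxcl14 and Cxcl16). The members were taken by symbol and matched by Entrez gene number to the 16739 genes that had a value in any library, with a gene absent from a table set to 0. Of the 8 ligands, 7 had enough counts to be tested. The tumors grew under the abdominal skin of C57BL/6 mice that were 6 to 8 weeks old at injection, and the macrophages were collected 16 days later. The 2 WT libraries came from littermate mice without the deletion. The 2 samples labelled Trim24-/- came from mice in which LysM-Cre deleted floxed Trim24, with the recombinase driven from the lysozyme M locus in macrophages, monocytes and neutrophils, so the deletion was not limited to TAMs. No treatment of the mice or the cells is stated. The labels do not say how many mice stand behind each library, so the p-values measure the spread between libraries only.

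CXC chemokines are small secreted proteins whose first cysteines are parted by a single residue, and they steer leukocytes through G-protein-coupled receptors. Those with the residues Glu-Leu-Arg just before the cysteines, the ELR motif, act on Cxcr2 and call in neutrophils, and macrophages make them on NF-kappaB activation by IL-1, TNF or Toll-like receptor ligands. Cxcl9 and Cxcl10 lack the motif, are induced by interferons, and bring Cxcr3-bearing T and NK cells into tumors. Cxcl13 draws B cells and follicular helper T cells through Cxcr5. Cxcl16 is made as a transmembrane protein that is shed by Adam10 and Adam17 and binds Cxcr6. Cxcl14 is a constitutive ligand of epithelia and other tissues.

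The coding sequence that opens the CXC motif is shown for the ligands on which the comparison of the classes rests. Each run is 5′ to 3′ on the coding strand and holds 27 bases from the longest coding GENCODE transcript of GRCm38, all of it in exon 2 of 4. The capitals mark the 3 codons just before the first cysteine of the motif. In Cxcl1, Cxcl2 and Cxcl3 these codons spell Glu-Leu-Arg, and in the other 5 ligands they do not.
Cxcl1 (chr5:90891487-90891513, plus strand): GAGCTGCGCtgtcagtgcctgcagacc
Cxcl2 (chr5:90904133-90904159, plus strand): GAACTGCGCtgtcaatgcctgaagacc
Cxcl3 (chr5:90786359-90786385, plus strand): GAGCTGCGCtgtcagtgcctgaacacc
Cxcl9 (chr5:92326833-92326859, minus strand): AATGCACGAtgctcctgcatcagcacc
Cxcl10 (chr5:92348172-92348198, minus strand): ACGGTCCGCtgcaactgcatccatatc
The coding sequences of Cxcl2 and Cxcl3 were identical at 89.7% of 300 aligned positions, and the transcripts shared an unbroken stretch of 110 bases. Cxcl1 was identical to Cxcl2 at 75.7% and to Cxcl3 at 72.7% of aligned positions, and its longest shared stretch with either was 23 bases. Cxcl9 and Cxcl10 were identical at 44.3% of aligned positions.

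The promoters of 7 of the 8 ligands were found in the RefSeq table of GRCm38.p6, which gives 250 bases before and 50 bases after each gene's start. The kappaB consensus, to which NF-kappaB dimers bind, was searched on both strands and matched in 4 of the 7 (Cxcl1, Cxcl2, Cxcl3 and Cxcl10), against 4.51% of 32851 promoters. The interferon-stimulated response element, GAAA parted by any 2 bases from GAAA, matched on either strand in Cxcl10 and Cxcl14, against 3.44% of promoters. The motif TTCNNNGAA of activated Stat dimers matched in Cxcl14 alone (8.30% of promoters) and the same motif with 4 free bases, which Stat6 prefers, matched in 0 of 7 (6.95% of promoters). The stretches around the matches in the neutrophil-attracting ligands and in Cxcl10 are shown because they hold the same 11 letters in all 3 ELR genes. The capitals mark kappaB matches, the interferon element, and in Cxcl3 also a TATAAA on the sense strand, which 8.32% of promoters hold. In each ELR gene the 11 letters hold a kappaB match on each strand, and these matches overlap.
Cxcl1 (chr5:90891164-90891194, plus strand, 81 to 51 bases before the start): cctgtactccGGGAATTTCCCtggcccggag
Cxcl2 (chr5:90903792-90903822, plus strand, 107 to 77 bases before the start): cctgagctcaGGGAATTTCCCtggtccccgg
Cxcl3 (chr5:90786018-90786086, plus strand, 83 to 15 bases before the start): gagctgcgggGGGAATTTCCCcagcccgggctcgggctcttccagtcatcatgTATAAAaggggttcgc
Cxcl10 (chr5:92348973-92349112, minus strand, 223 to 84 bases before the start): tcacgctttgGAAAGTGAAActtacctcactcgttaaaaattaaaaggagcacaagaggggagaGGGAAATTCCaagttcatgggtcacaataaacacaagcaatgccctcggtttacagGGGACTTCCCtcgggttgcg
These matches describe the letters of the windows and were not measured as binding in these cells.

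The 4 libraries held 4476122 to 5172407 expected counts, the estimate of reads per gene made by RSEM. Counts were scaled to CPM, counts relative to the library total after edgeR's TMM scaling, in which 3 counts correspond to 0.606 to 0.639 CPM. That floor covers counting error only. Trim24 itself was at 5.82 and 2.12 CPM in WT samples and at 3.43 and 0.411 CPM in the samples labelled Trim24-deficient, so the groups overlapped and the transcript did not part the labels. Xist was at 6.51 to 10.9 CPM in the WT and at 256 to 437 CPM in the other libraries, and the Y-linked Ddx3y at 73.6 to 102 and at 0.411 to 0.426 CPM. By these transcripts the WT libraries read as male and the others as female, although the paper describes the injected mice as matched for sex. Genotype label and the sex-linked transcripts run along the same split and cannot be told apart in any difference below. The macrophage identity of the sort was checked with 10 markers, all of which passed the low-count filter, led by C1qb, C1qc and C1qa. Their summed level was 16610 to 18670 CPM in WT and 19740 to 20280 CPM in the samples labelled Trim24-deficient, with 0 of 10 called (2 with unadjusted p under 0.05 in edgeR, and 0 called by DESeq2 or limma).

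Levels of different ligands were compared as FPKM, the deposited values scaled to transcript length and library total. Cxcl10 was the most abundant ligand by the mean over the 4 libraries at 278 FPKM, with 299 and 225 FPKM in WT samples 1 and 2 and 439 and 148 FPKM in the samples labelled Trim24-deficient replicates 1 and 2. Cxcl16 followed at 185, 208, 174 and 192 FPKM in the same order of libraries. Cxcl9 was at 102, 37.6, 203 and 70.0 FPKM, and Cxcl2 at 46.8, 52.0, 33.9 and 72.9 FPKM. These 4 ligands made up the upper tier, and each overlapped the next in its range over libraries. In the WT mean, Cxcl10 ranked 355th, Cxcl16 474th, Cxcl9 1334th and Cxcl2 1840th among the 16739 genes.

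A lower tier began with a step that no library crossed. Cxcl3 lay between 4.53 and 16.5 FPKM, below every Cxcl2 value, and Cxcl1 between 3.65 and 12.3 FPKM. Cxcl14 lay between 3.62 and 7.69 FPKM. The ranges of Cxcl3, Cxcl1 and Cxcl14 overlapped. Cxcl13 was listed at 0 in both WT libraries and in the sample labelled Trim24-deficient replicate 1, and at 0.67 FPKM in replicate 2.

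**Figure D1:**
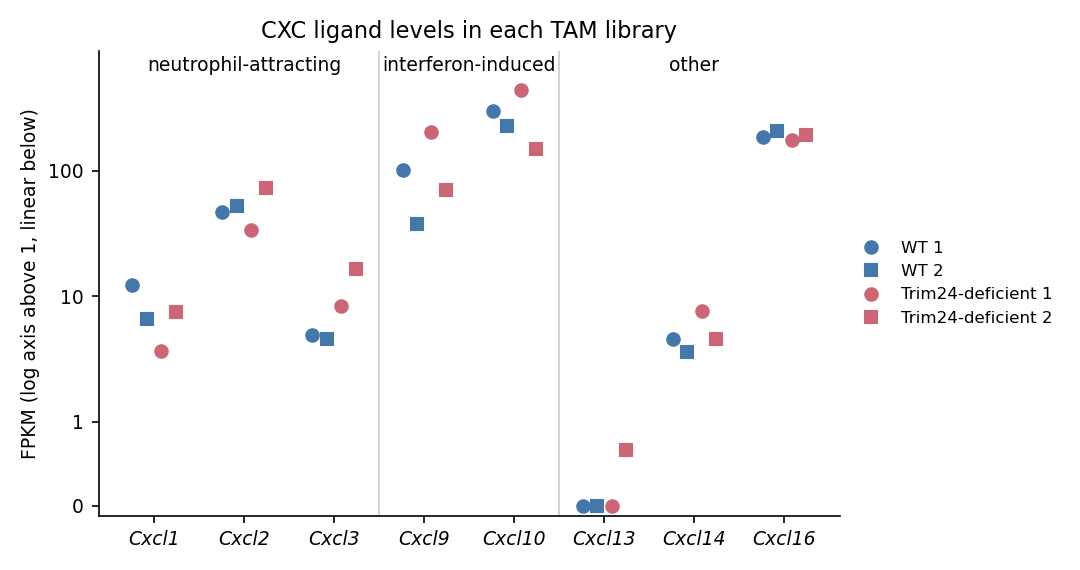
FPKM of the 8 CXC ligands in each library (points, circles for replicate 1 and squares for replicate 2 of each label; the vertical axis is logarithmic above 1 FPKM and linear below). Cxcl10, Cxcl16, Cxcl9 and Cxcl2 lie between 33.9 and 439 FPKM, while Cxcl3, Cxcl1 and Cxcl14 lie between 3.62 and 16.5 FPKM in all 4 libraries.

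Between WT TAMs and TAMs labelled Trim24-deficient, the comparison the study was built on, none of the 7 tested ligands was called. Calls were made with edgeR's quasi-likelihood test and Benjamini-Hochberg adjustment over 11302 genes, and needed both an adjusted p under 0.05 and a change of more than 1.5-fold. The count was 0 of 7, against 0.372% of all genes tested. DESeq2, which called 0.977% of all genes, and limma on log2(FPKM + 1) also called 0 ligands. In each of the 3 tools Cxcl3 was the 1 ligand with an unadjusted p under 0.05. In edgeR 1379 of the 11302 genes tested had such a p, so 1 of 7 does not set the ligands apart. Of the 7 fold changes, 6 were above 0, with a median log2 fold change of 0.30 beside -0.0059 over all genes tested. In 2 of 7, Cxcl3 and Cxcl14, both samples labelled Trim24-deficient lay above both WT libraries in CPM, against 21.5% of all genes. In 0 of 7 did both lie below, against 23.0% of all genes. With 2 libraries a label an exact two-sided permutation test cannot give a p below 0.333.

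**Figure D2:**
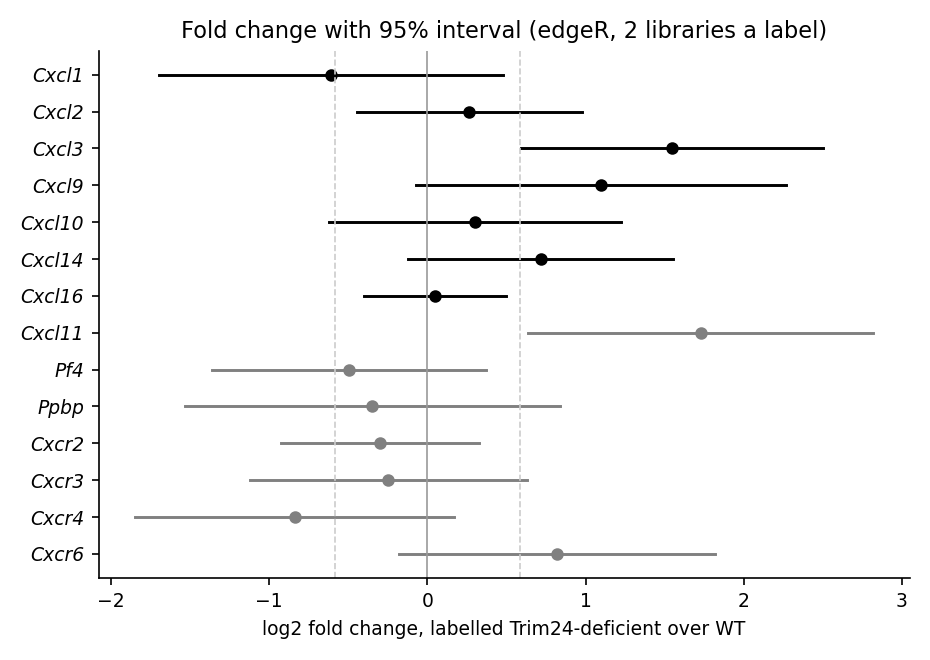
Log2 fold change, samples labelled Trim24-deficient over WT, with its 95% interval from edgeR's quasi-likelihood fit for the 7 tested ligands (black) and for 3 further CXC ligands and 4 receptors (grey); the dashed lines mark a fold change of 1.5. Among the 7 ligands only the interval of Cxcl3, from 0.59 to 2.50, does not include 0, and its adjusted p is 0.199.

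The neutrophil-attracting ligands did not move together between the labels. Cxcl1 (Entrez gene 14825, chromosome 5 of GRCm38 from 90891245 to 90893121), which activates neutrophils through Cxcr2, was at 11.3 and 5.83 CPM in WT samples 1 and 2. Its level in the samples labelled Trim24-deficient was 3.62 and 7.60 CPM in replicates 1 and 2. The highest value was in a WT library, and the groups overlapped. The log2 fold change of Cxcl1 was -0.61 (standard error, SE, 0.48, 95% interval -1.70 to 0.48, adjusted p = 0.645, edgeR).

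Cxcl2 (Entrez gene 20310, chromosome 5 from 90903899 to 90905938) is the macrophage inflammatory protein that mobilizes neutrophils through the same receptor. Its level was 48.7 and 51.8 CPM in the WT samples and 37.9 and 82.8 CPM in those labelled Trim24-deficient. The WT values were alike, while the samples labelled Trim24-deficient lay on either side of them with a 2.19-fold distance between each other. Cxcl2 had a log2 fold change of 0.26 (SE 0.32, 95% interval -0.45 to 0.98, adjusted p = 0.784, edgeR). Without the sample labelled Trim24-deficient replicate 2 it turned to -0.41.

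Cxcl3 (Entrez gene 330122, chromosome 5 from 90786101 to 90788093), a close paralog of Cxcl2, was at 4.80 and 4.24 CPM in the WT samples and at 8.72 and 17.6 CPM in those labelled Trim24-deficient. Here the groups did not overlap, and the mean was 4.52 ± 0.399 against 13.2 ± 6.30 CPM (SD, n = 2 each). The log2 fold change was 1.55 (SE 0.42, adjusted p = 0.199, edgeR), which did not pass. Without the sample labelled Trim24-deficient replicate 1, Cxcl3 was called at 1.97 (adjusted p = 0.00642), in a fit that called 3.46% of all genes. That fit takes its spread from the WT pair alone and assumes that the lone sample of the other label varies like it. Within a library Cxcl1 was 2.49 and 1.46 times as abundant as Cxcl3 in FPKM in WT samples 1 and 2, and 0.439 and 0.457 times as abundant in the samples labelled Trim24-deficient. This ratio was picked after the values were seen and was not tested.

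Cxcl2 and Cxcl3 were tied to each other by fractional counts, which RSEM gives where reads match more than 1 transcript. Their expected counts were not whole numbers in any library, but added up to whole numbers in all 4, namely 265 and 269 in WT samples 1 and 2 and 219 and 489 in the samples labelled Trim24-deficient. Of all genes, Cxcl3 was the 1 whose counts completed those of Cxcl2 to a whole number in every library, within 0.02 counts. Cxcl3 received 8.97% and 7.56% of the summed counts in WT libraries and 18.7% and 17.6% in those labelled Trim24-deficient. How many reads matched both transcripts equally well cannot be read from the tables, so the Cxcl2 and Cxcl3 values are uncertain as single genes. Summed to 1 feature, an alternative added after these values were seen, the pair was at 53.5, 56.0, 46.6 and 100.5 CPM in the same order, and the groups overlapped. The log2 fold change of the sum was 0.43 (SE 0.31, 95% interval -0.27 to 1.13, adjusted p = 0.615, edgeR).

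**Figure D3:**
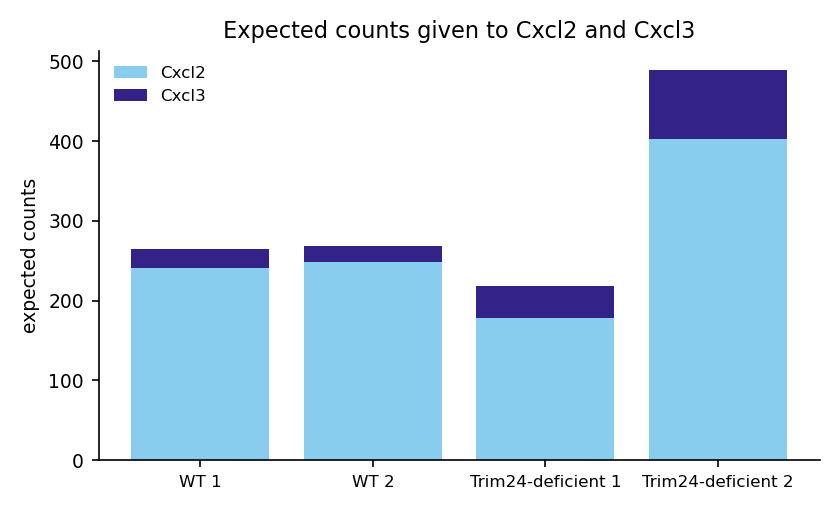
Expected counts that RSEM gave to Cxcl2 (light) and Cxcl3 (dark) in each library, stacked. The sums are 265, 269, 219 and 489 counts, and the Cxcl3 share is 8.97% and 7.56% in the WT samples and 18.7% and 17.6% in those labelled Trim24-deficient.

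The NF-kappaB and IL-1 genes that surround these ligands were taken as a list of 15, of which 14 were tested. In it 3 genes rose and 0 fell, against 0.372% called of all genes. They were Il1a and Il1b, the IL-1 cytokines, with log2 fold changes of 4.07 and 2.24, and Ptgs2, the inducible cyclooxygenase, with 2.51 (adjusted p = 0.0371, 0.0123 and 0.0112, edgeR). With the trend on transcript length taken out Il1a was no longer called, and limma on log2(FPKM + 1) called 0 of the list, with the same 3 genes at an unadjusted p under 0.05. Each of the 3 was highest in the sample labelled Trim24-deficient replicate 2, which also held the highest Cxcl2 and Cxcl3. The median log2 fold change of the 14 was 0.38. In edgeR 5 of the 14 had an unadjusted p under 0.05, all higher, beside 1379 of the 11302 genes tested. They were the 3 called genes, Icam1 and Tnfaip3. In 7 of the 14 both samples labelled Trim24-deficient lay above both WT libraries, against 21.5% of all genes, and in 2 below, against 23.0%. The abundant members Zfp36, Nfkbia, Icam1 and Rela, an mRNA-decay factor, an NF-kappaB inhibitor, an adhesion molecule and an NF-kappaB subunit, had 0.079, 0.47, 0.76 and -0.039 and did not pass.

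Neutrophil transcripts were present beside these ligands. Of 12 neutrophil markers, 5 passed the low-count filter and Elane and Mpo were at 0 in every library, and the summed level was 185 and 223 CPM in the WT samples and 288 and 450 CPM in those labelled Trim24-deficient. It was led by Csf3r, Cxcr2 and S100a8, of which macrophages and monocytes also carry some transcript. Ly6g had 0 counts in both WT libraries and 9.41 and 4.47 in those labelled Trim24-deficient, below the low-count filter. Camp, Ngp and Ltf did not exceed 5 counts in any library. S100a8 was at 17.4, 15.6, 35.1 and 118 CPM in WT samples 1 and 2 and the samples labelled Trim24-deficient replicates 1 and 2, so its highest value lay in the same library as that of Cxcl2. No neutrophil marker was called by edgeR, DESeq2 called Csf3r and S100a9 beside 0.977% of all genes, and limma called 0. In edgeR 4 of the 5 tested had an unadjusted p under 0.05, all higher, beside 1379 of the 11302 genes tested. In 4 of the 5 both samples labelled Trim24-deficient lay above both WT libraries, against 21.5% of all genes. The sum of 5 monocyte markers, led by Ccr2, Ly6c2 and Plac8, was 519 and 644 CPM in WT and 1648 and 1041 CPM in the other libraries. Ly6c2 and Plac8 were called by DESeq2 and not by edgeR or limma, with an unadjusted p under 0.05 in all 3 tools. The part of these cells in the ligand values was not tested. In bulk RNA of a sorted population, fewer cells of a type and less RNA per cell cannot be told apart. Cxcr2, the receptor for the ELR ligands, was at 63.5, 83.9, 42.9 and 76.9 CPM (log2 fold change -0.30, adjusted p = 0.706, edgeR), and Cxcr1 was at 0 in every library.

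Of the interferon-induced ligands, Cxcl9 varied strongly within each label. Cxcl10 did so in the samples labelled Trim24-deficient (2.93-fold) and less in WT (1.39-fold). Cxcl9 (Entrez gene 17329, chromosome 5 from 92321331 to 92328079), a ligand of Cxcr3 that depends on interferon-γ, was at 290 and 103 CPM in WT samples 1 and 2. It was at 622 and 218 CPM in the samples labelled Trim24-deficient replicates 1 and 2. Within each label replicate 1 held the higher value, by 2.82-fold in WT and 2.85-fold in the other group. WT replicate 1 lay above the sample labelled Trim24-deficient replicate 2, so the groups overlapped. Cxcl9 had a log2 fold change of 1.10 (SE 0.52, 95% interval -0.072 to 2.27, adjusted p = 0.428, edgeR).

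Cxcl10 (Entrez gene 15945, chromosome 5 from 92346638 to 92348889), the Cxcr3 ligand that responds to type I interferon and interferon-γ, was at 322 and 232 CPM in the WT samples and at 509 and 174 CPM in those labelled Trim24-deficient. The highest and the lowest of the 4 values carried the same label. The log2 fold change of Cxcl10 was 0.30 (SE 0.41, 95% interval -0.63 to 1.23, adjusted p = 0.814, edgeR).

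The values of both changed with the library left out. Without the sample labelled Trim24-deficient replicate 2, Cxcl9 and Cxcl10 were called at 1.67 and 0.88 (adjusted p = 0.000723 and 0.0213, edgeR), in a fit that called 5.54% of all genes and again took its spread from the WT pair alone. Without replicate 1 of that label, Cxcl9 fell to 0.16 and Cxcl10 turned to -0.67, and neither was called. Without WT replicate 1 the Cxcl9 change was 2.05 and without WT replicate 2 it was 0.53, uncalled in both. Cxcl9 was 0.340 and 0.167 times as abundant as Cxcl10 in FPKM in WT samples 1 and 2, and 0.462 and 0.475 times in the samples labelled Trim24-deficient, a ratio picked after the values were seen and not tested.

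Cxcl11, the remaining Cxcr3 ligand, lies beside Cxcl10 on chromosome 5 from 92359544 to 92363296 and is listed by RefSeq as a transcribed pseudogene in this strain. It was at 3.04 and 2.63 CPM in the WT samples and 12.9 and 6.14 CPM in those labelled Trim24-deficient. The groups did not overlap, and 21.5% of all genes were parted in this direction. Its expected counts (15.06, 12.63, 60.73 and 29.9) were fractional in every library, so its values are uncertain as those of a single gene. The log2 fold change of 1.73 (SE 0.48, adjusted p = 0.207, edgeR) did not pass. Cxcr3 itself ranged from 5.96 to 12.1 CPM, and its lowest value lay in the library with the highest Cxcl9, Cxcl10 and Cxcl11.

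Of 20 interferon genes tested, 0 were called by edgeR or limma, although 12 had an unadjusted p under 0.05 in edgeR, all 12 of them above 0, beside 1379 of the 11302 genes tested. Gbp2 and Irf7 were among the genes of the list that DESeq2 called. The median log2 fold change of the list was 0.53, and in 12 of 20 both samples labelled Trim24-deficient lay higher than both WT libraries, against 21.5% of all genes. The transcription factor Irf7, the GTPase Gbp2 and the antiviral Ifit2 had log2 fold changes of 0.73, 1.22 and 0.80, uncalled. Irf7, Gbp2 and Ifit2 were all highest in the sample labelled Trim24-deficient replicate 1, as were Cxcl9 and Cxcl10.

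T and NK cell transcripts were read beside these ligands. Interferon-γ is made by these cells, and its gene Ifng, singled out after its values were seen, was at 7.88 and 3.96 CPM in WT samples 1 and 2 and at 39.8 and 7.40 CPM in the samples labelled Trim24-deficient (log2 fold change 1.99, adjusted p = 0.273, edgeR). Ifng and Cxcl9 ranked the 4 libraries alike, and Cxcl10 ranked them otherwise. The summed level of 9 T and NK cell markers, led by Gzmb, Cd8a and Cd3g, was 126 and 74.4 CPM in WT. In the other libraries it was 244 and 58.2 CPM, and the sum ranked the libraries as Cxcl10 did but not as Cxcl9 or Ifng did. Such orders over 4 libraries were not tested. Of the 9 markers 7 were tested, none was called by edgeR, DESeq2 or limma, and 0 had an unadjusted p under 0.05 in any of them. Dendritic cell markers, whose list of 7 was led by Xcr1, Batf3 and Ccr7, summed to 70.8, 58.3, 103 and 63.4 CPM with 0 called by edgeR, DESeq2 or limma. Flt3 alone had an unadjusted p under 0.05, and its change was downward. It was at 3.84 and 5.42 CPM in WT and at 1.28 and 0.21 CPM in the other libraries (log2 fold change -2.61, uncalled). Of the 6 tested, 4 had fold changes above 0. The part of T, NK and dendritic cells in the Cxcl9 and Cxcl10 values was not tested.

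**Figure D4:**
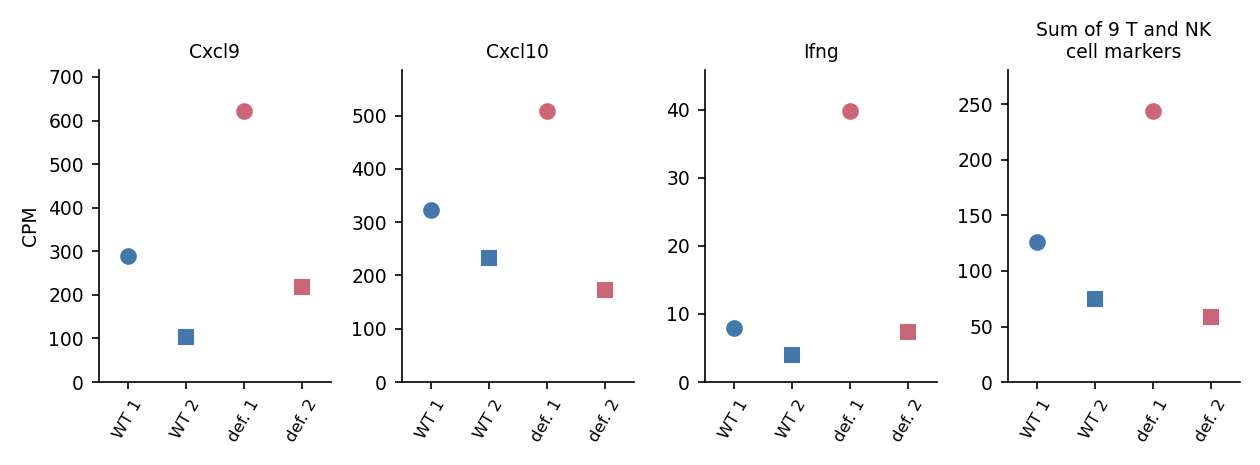
CPM in each library of Cxcl9, Cxcl10, Ifng and the sum of 9 T and NK cell markers (def., labelled Trim24-deficient; circles, replicate 1; squares, replicate 2). All 4 panels are highest in the sample labelled Trim24-deficient replicate 1, with 622, 509, 39.8 and 244 CPM.

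The neutrophil-attracting and the interferon-induced ligands were set against each other within each library, where scaling cancels. Summed FPKM of Cxcl1, Cxcl2 and Cxcl3 was 64.0 and 63.1 in WT samples 1 and 2 and 45.8 and 97.0 in the samples labelled Trim24-deficient replicates 1 and 2. Cxcl2 supplied 73.2% to 82.4% of that sum. Summed FPKM of Cxcl9 and Cxcl10 was 401 and 262 in the WT and 642 and 218 in the other libraries, with Cxcl10 the larger part in all 4. The interferon-induced sum was the higher one in every library, by 6.26-fold and 4.16-fold in WT and by 14.0-fold and 2.24-fold in the samples labelled Trim24-deficient.

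The balance of the classes spanned a wider range within the samples labelled Trim24-deficient than between the labels. Its log2 value, neutrophil-attracting over interferon-induced, was -2.35 ± 0.42 in WT and -2.49 ± 1.87 in the other group (SD, n = 2 each), a difference of -0.14 against a pooled SD of 1.35. The sample labelled Trim24-deficient replicate 1 had the highest interferon-induced and the lowest neutrophil-attracting sum of the 4, and replicate 2 the reverse. Both WT libraries lay between them. Leaving out each library in turn moved the difference between -1.46 and 1.18, positive without WT replicate 2 and without the sample labelled Trim24-deficient replicate 1. No p is given for a score over chosen members.

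**Figure D5:**
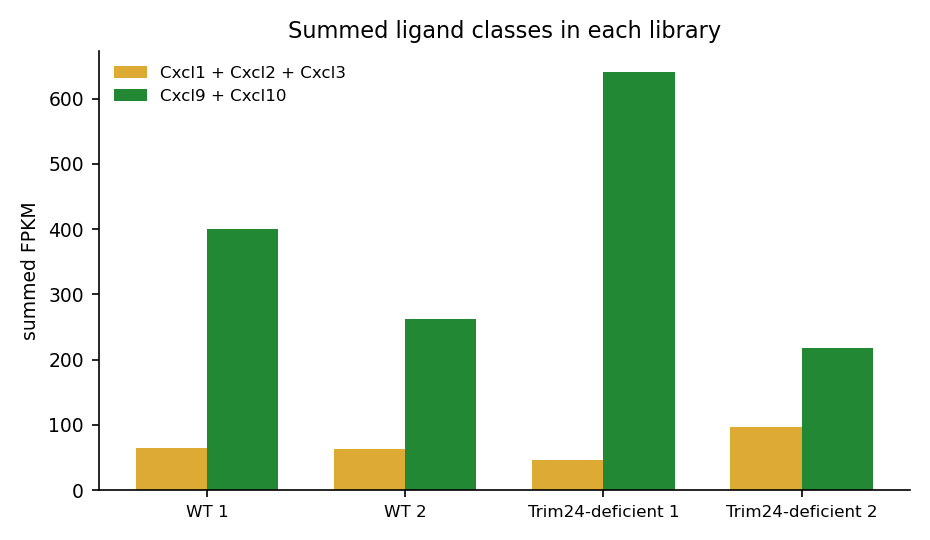
Summed FPKM of Cxcl1, Cxcl2 and Cxcl3 (yellow) and of Cxcl9 and Cxcl10 (green) in each library. The green bar is the taller one in all 4 libraries, by 14.0-fold in the sample labelled Trim24-deficient replicate 1 and by 2.24-fold in replicate 2.

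Cxcl16 (Entrez gene 66102, chromosome 11 from 70454389 to 70459984) was the steadiest of the ligands. It was at 443 and 477 CPM in WT and at 448 and 504 CPM in the samples labelled Trim24-deficient, and the libraries interleaved. Cxcl16 had a log2 fold change of 0.050 (SE 0.20, 95% interval -0.40 to 0.50, adjusted p = 0.940, edgeR), an interval that lies within the 1.5-fold limits used for calls. Scaling by library totals put the median log2 fold change of all genes at -0.15 and the change of Cxcl16 at -0.10, so its sign depended on the scaling. Its receptor Cxcr6, found on effector T and NKT cells, was at 16.2, 13.8, 40.0 and 12.9 CPM (log2 fold change 0.82, adjusted p = 0.482, edgeR), highest in the library with the most T and NK cell transcript. The shedding enzymes Adam10 and Adam17 had log2 fold changes of 0.16 and 0.20, and Dpp4, which clips Cxcl9 and Cxcl10, had 0.055, all uncalled.

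Cxcl14 (Entrez gene 57266, chromosome 13 from 56288643 to 56296811) was low, at 8.28 and 6.25 CPM in WT and at 14.9 and 9.04 CPM in the samples labelled Trim24-deficient. The groups did not overlap in CPM, although WT replicate 1 came close to the lower library of the other label. In FPKM these 2 libraries were tied at 4.6, so the separation depended on the scaling. Cxcl14 had a log2 fold change of 0.72 (SE 0.37, 95% interval -0.12 to 1.55, adjusted p = 0.467, edgeR). Fibroblast and keratinocyte markers, from cells known to make Cxcl14, summed to 2.83 to 5.96 CPM and 0.606 to 1.07 CPM over the 4 libraries, with Lum, Krt5 and Krt14 at 0 in all.

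Cxcl13 (Entrez gene 55985, chromosome 5 from 95956939 to 95961068) had expected counts of 0, 0, 0 and 4 and fell below the low-count filter. A count of 0 in a library allows up to 3 counts, or 0.606 to 0.639 CPM, so a difference was not detectable at this depth. Its receptor Cxcr5 had 3, 9, 12 and 3 counts and was not tested. Of 4 B cell markers Cd79b alone was tested, was not called by edgeR, DESeq2 or limma, and was at 43.1 to 53.7 CPM.

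Of the 7 further mouse CXC ligands, 3 were tested and 0 were called by edgeR, DESeq2 or limma. Cxcl11 was the 1 with an unadjusted p under 0.05 in all 3 tools, beside 1379 of the 11302 genes tested in edgeR. Pf4, which macrophages share with platelets, exceeded every one of the 8 ligands per length, with 1182 and 1611 FPKM in WT and 492 and 1282 FPKM in the samples labelled Trim24-deficient (log2 fold change -0.50, SE 0.39, adjusted p = 0.635, edgeR). Ppbp, an ELR ligand of platelets and of some monocytes, was at 11.1, 20.6, 5.32 and 19.5 CPM (log2 fold change -0.35). Pf4 and Ppbp both had their lowest value in the sample labelled Trim24-deficient replicate 1, where Cxcl1 and Cxcl2 were lowest too. The platelet genes Itga2b, Gp1ba and Gp9 were at 0 to 0.852 CPM. Cxcl5, Cxcl12, Cxcl15 and Cxcl17 did not exceed 1.68 CPM in any library and were not tested. Cxcr4, the receptor of Cxcl12, was at 6.06, 5.21, 3.20 and 3.08 CPM, below in both samples labelled Trim24-deficient but uncalled (log2 fold change -0.84, adjusted p = 0.476, edgeR).

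Tumor and vessel transcripts were checked as other sources of these chemokines. The 7 melanoma markers, led by Tyr, Tyrp1 and Pmel, summed to 773 to 813 CPM in WT and to 611 and 804 CPM in the samples labelled Trim24-deficient, with 0 called by edgeR, DESeq2 or limma. The lower of these sums lay in the library with the lowest Cxcl1 and Cxcl2. The median log2 fold change of the 7 was -0.46, with 1 above 0. In 4 of 7 both samples labelled Trim24-deficient lay below both WT libraries, against 23.0% of all genes, and in 0 of 7 above. Tyrp1 had an unadjusted p under 0.05 in all 3 tools. In limma on log2(FPKM + 1) Dct, Mitf and Mlana did too, beside 1490 of 11093 genes, and all 4 were lower. Of 4 endothelial markers 2 were tested and 0 called by any of the 3 tools (Pecam1 had an unadjusted p under 0.05). The 4 summed to 19.0 and 17.7 CPM in WT and to 42.0 and 27.1 CPM in the samples labelled Trim24-deficient, without overlap. That separation rested on Pecam1 (log2 fold change 1.42, uncalled) and was not shared by the other markers. Kdr (log2 fold change -0.22, uncalled) and Cdh5 overlapped and were highest in WT replicate 2, and Tek was at 0 in every library. The part of these cells in the ligand values was not tested.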

How the data were processed

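RNA of sorted TAMs was sequenced in 2 WT libraries and 2 libraries labelled Trim24-deficient, grouped by their titles. Per the submitters' notes and the labels, Bowtie and RSEM were run on GRCm38/mm10 (versions not given), and the deposited expected count of each gene is unnormalized (76.6% to 77.7% whole). The authors also deposited FPKM, scaled to transcript length and library total, and a transcript length. Symbols were matched by Entrez number to RefSeq for 16698 of 16739 genes. Positions are from RefSeq and GENCODE M21, both GRCm38.

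Expected counts were rounded, filtered with filterByExpr (11302 genes), scaled by TMM and tested with edgeR 4.0.16 in R 4.3.3 (glmQLFit, glmQLFTest), without a block. A standard error is the absolute fold change over the root of F, and CPM uses unrounded counts over TMM-scaled totals. DESeq2 1.42.0, limma 3.58.1 with a pseudocount of 1 or 0.1 on log2 FPKM, other scalings and filters, a lowess offset on transcript length, a replicate block and each library left out were alternatives. The edgeR fits without and with the replicate block and with the length offset, DESeq2 and limma were tested on simulated counts. The other steps were not. The members and lists were chosen with earlier results of these data known. Named genes are the members, other CXC ligands, receptors and processing enzymes, called genes of the lists, the 4 (markers, 3) with the highest mean CPM, and Trim24, Xist and Ddx3y. Some genes that this rule names are not reported here. Protein sequences were not used here.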

Additional observations from a re-analysis of the deposited data

How the results depend on the processing

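The 2 libraries a label and the spread within labels limit these results, and p-values of the single ligands rest on a spread that edgeR shares between genes. For the count of ligands called, 12 of 15 alternatives gave 0. With the replicate number as a block (replicate block) 2 were called, Cxcl3 at 1.48 and Cxcl9 at 1.09 (adjusted p = 0.00871 and 2.1e-05, edgeR) with all 4 libraries kept, in a fit that called 634 genes (5.61% of those tested). The labels do not say that equal numbers pair the mice, deviations of same-numbered libraries correlated at 0.165 across genes, and that fit took its spread wholly from all genes. The count of all genes called was 42, and it was 163 with DESeq2, 24 with limma on log2(FPKM + 1) and 0 with limma without a filter on low values, where 1954 genes had an unadjusted p under 0.05. With each library left out in turn, where the lone sample of a label is assumed to vary like the other label's pair, it was 25 to 652, and the ligands called were 0 to 2.

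In the same fits Cxcl3 ranged from 0.95 to 1.97, Cxcl9 from 0.16 to 2.05, Cxcl10 from -0.67 to 0.88, Cxcl2 from -0.41 to 0.73, Cxcl16 from -0.034 to 0.14, Cxcl1 from -1.24 (without the sample labelled Trim24-deficient replicate 2) to -0.036 (without WT replicate 1) and Cxcl14 from 0.32 to 1.03. Cxcl10 was -0.026 with limma on log2(FPKM + 1), with or without the filter, and -0.027 on log2(FPKM + 0.1). Cxcl16 was -0.10 by library totals, -0.0068 by upper-quartile scaling, -0.0987 with limma on log2(FPKM + 1), with or without the filter, and -0.0991 on log2(FPKM + 0.1). The library-total and FPKM scales put the median log2 fold change of all genes at -0.15 to -0.089, against -0.0059. Fold changes were higher in shorter transcripts (Spearman's rho -0.249 across genes, which are not independent), and with that trend taken out the 7 ligands kept their signs and 0 were called. The signs of Cxcl1, Cxcl3, Cxcl9 and Cxcl14 and the sides of the threshold of Cxcl1 and Cxcl14 held in all alternatives. The difference in class ratio was -0.34 from summed CPM and -0.28 from mean log2(FPKM + 0.1), and ran from -1.46 to 1.18 with each library left out, changing sign without WT replicate 2 and without the sample labelled Trim24-deficient replicate 1. The causes of these shifts were not tested.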
